A study of Mus musculus with 22 samples.

Results

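Pcp4 and 7 further genes of the calmodulin system (Pcp4l1, Nrgn, Calm2, Calm3, Camk2a, Camk2b and Camk4) were taken by gene symbol from a count table of 55385 genes, so that 8 genes are described here. Of these, only Pcp4 lies on the segment of mouse chromosome 16 that is present in 3 copies in Ts66Yah mice, a model of Down syndrome, whereas the other 7 genes have the normal copy number. RNA-Seq was performed on 2 brain regions, the hippocampus (HIP) and entorhinal cortex (EC), of 5 wt and 6 Ts66Yah mice, giving 22 libraries, with both regions taken from each mouse. All mice were males of 5 to 6 months on a mixed B6C3B background. The Ts66Yah mice carry a freely segregating minichromosome of the distal chromosome 16 segment, and the wt mice are their littermates without it. The line descends from 1 mosaic CRISPR/Cas9 founder, and those of its pups that carried a minichromosome had only the new junction. The Ts66Yah group thus stands for 1 engineered chromosome. The labels report no pooling of mice and no batch.

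Calmodulin is the main calcium sensor of neurons. When calcium enters the cell, calmodulin binds it and activates kinases, phosphatases and channels, and small proteins with an IQ motif hold calmodulin or change how fast it takes up and releases calcium. Pcp4 (also called PEP-19), its relative Pcp4l1 and neurogranin (Nrgn) are such small IQ proteins. Calm2 and Calm3 both encode calmodulin itself. Camk2a and Camk2b encode the main subunits of CaMKII in forebrain neurons, an abundant kinase of synaptic plasticity, and Camk4 encodes a nuclear kinase that acts on transcription factors such as CREB.

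The 22 libraries held 25.9 to 50.1 M counts (M for mega), with a median of 34.7 M. Levels are given as CPM, counts per 1 M counts of the library, scaled by TMM factors over the 22 libraries, with the SD over mice, and fold changes come from edgeR (quasi-likelihood test), with p-values adjusted by Benjamini-Hochberg across every tested gene and called under 0.05. The tissue labels were checked on marker genes. Markers of dentate granule cells summed to 217 to 291 CPM in the HIP libraries and to 18.5 to 23.5 CPM in the EC libraries. The cortical lists did not set the EC apart in this way. Layer 5 markers summed to 385 to 498 CPM in the HIP and to 193 to 322 CPM in the EC. For layer 6 the sums were 167 to 200 CPM in the HIP and 116 to 174 CPM in the EC. Thalamus markers were also higher in the HIP, at 94.8 to 137 CPM against 45.3 to 67.2 CPM. Choroid plexus markers were uneven, at 109 CPM in the HIP library of wt mouse 4 and between 759 and 3255 CPM in the other HIP libraries. Striatal markers summed to 402 CPM in the EC library of wt mouse 2 and to 176 to 252 CPM in the other EC libraries. No marker of the 15 cell type lists was at 0 in all libraries, and no marker was called between genotypes in either region. In bulk tissue, fewer cells of a type and less RNA per cell cannot be told apart, which holds for every level below.

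The small IQ proteins were compared first by sequence, since the motif is what they share. The Pcp4 gene (ENSMUSG00000090223) lies on chr16:96467606-96525793, plus strand, Pcp4l1 (ENSMUSG00000038370) on chr1:171173262-171196268, minus strand, and Nrgn (ENSMUSG00000053310) on chr9:37544492-37552904, minus strand (GRCm38, GENCODE). Their longest coding sequences encode 62, 68 and 78 residues. Each protein holds 1 match to the core of the IQ motif, searched as a glutamine that follows phenylalanine, isoleucine, leucine or valine, then any 3 residues, a basic residue, any 4 residues and another basic residue. The first 30 coding bases of this match stop just before the codon of its last basic residue. They are shown from 5′ to 3′, with the codons of the isoleucine, the glutamine and the first basic residue in capitals:
Pcp4: ATTCAGtctcagttcAGAaaattccagaag
Pcp4l1: ATCCAGggcaagttcCGGcgattccagaag
Nrgn: ATCCAGgcgagtttcCGGggccacatggcg
The stretches lie on chr16:96525464-96525493, chr1:171174407-171174436 and chr9:37546064-37546093, each in 1 exon. The same motif core was found in 9.11% of 21350 protein-coding genes and in 2.43% of the 617 that encode up to 100 residues, so the match describes these genes and is not particular to them.

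Calm2 (ENSMUSG00000036438) lies on chr17:87433412-87446935 and Calm3 (ENSMUSG00000019370) on chr7:16915379-16924114, both on the minus strand. They encode the same 149 residues from different DNA. The coding sequences of Calm2 and Calm3 differ at 78 of 447 bases, of which 74 are at the third base of a codon. The longest identical run is 17 bases, so that no window of 50 bases, the read length, is identical between them. Codons 62 to 71 are shown, picked as the in-frame stretch of 30 bases with the most differences, with the 8 bases that differ in capitals:
Calm2: ggCacAattgaTttcccTgaAttTCtgacA
Calm3: ggGacCattgaCttcccAgaGttCTtgacC
These stretches lie on chr17:87435676-87435705 and chr7:16917458-16917487, both on the minus strand. Near-identical processed pseudogenes exist, however. Gm7308 and Gm15720 match Calm2 transcripts at 95% or more over at least 50 bases and together held 4.67% as many counts as Calm2, and Gm5881 held 3.5% as many as Calm3. How reads with several matches were treated is not given in the sources used here, and the calmodulin levels are uncertain to that extent. Neither Pcp4l1, Nrgn, Camk2a nor Camk2b matched another gene at this identity.

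Per kilobase of exon, Calm2, Calm3, Camk2a and Nrgn stood above Camk2b, Pcp4, Pcp4l1 and Camk4 in every group, and Camk4 was always lowest. The length counts every annotated exon base of a gene, whichever transcripts are expressed, so the order between genes depends on it. In wt HIP, Calm3 stood at 854 ± 85.7 CPM per kb (SD, n = 5) and Calm2 at 782 ± 48.8, with overlapping ranges. Camk2a followed at 616 ± 34.2 and Nrgn at 527 ± 89.0 CPM per kb, which also overlapped. Camk2b was separate from its neighbours at 183 ± 8.75 CPM per kb. Pcp4 at 40.9 ± 9.11 and Pcp4l1 at 35.5 ± 2.92 CPM per kb overlapped, and Camk4 stood at 11.1 ± 1.09. In Ts66Yah HIP, the order was the same, but the ranges of Pcp4 (49.1 ± 7.46 CPM per kb, n = 6) and Pcp4l1 (32.9 ± 5.12) did not overlap. In wt EC, Calm2 came first at 910 ± 52.9 CPM per kb, and Pcp4 at 90.6 ± 17.4 overlapped with Camk2b at 98.4 ± 2.61. In Ts66Yah EC, Pcp4 at 105 ± 13.8 CPM per kb stood above Camk2b at 93.2 ± 4.44, again with overlapping ranges.

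The level of Pcp4 carries a limit of its own. Of its 1026 exon bases, 243 are shared with a readthrough gene annotated as a second Igsf5 (ENSMUSG00000117081), which is listed at 0 in all 22 libraries. Whether reads in the shared bases were set aside in counting is not given in the sources used here. Over the 783 unshared bases, Pcp4 would be at 53.6 CPM per kb in wt HIP and at 119 CPM per kb in wt EC, which moves it above the mean of Camk2b in wt EC. In Ts66Yah EC it would be at 137 CPM per kb, and its range of 111 to 154 would lie above that of Camk2b (87.8 to 98.0) without overlap.

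**Figure D1:**
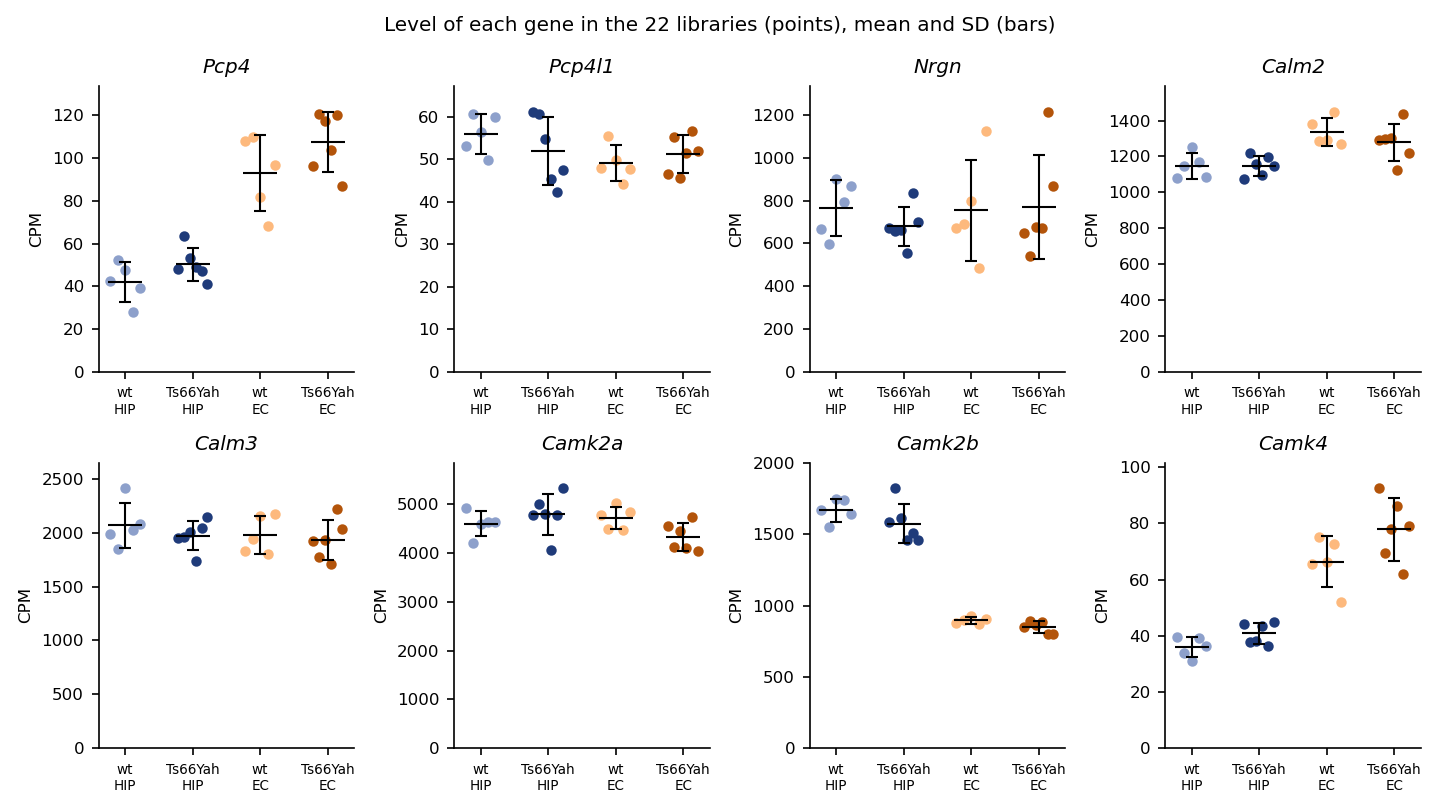
Level of the 8 genes (y axis, CPM scaled over all 22 libraries, starting at 0) in each library (points) of the 4 groups, with the mean and SD as bars. Pcp4 and Camk4 sit higher and Camk2b lower in both EC groups than in both HIP groups, while the genotypes overlap within each region for all 8 genes.

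Pcp4, whose product speeds the exchange of calcium on calmodulin, was examined first between genotypes because it is the triplicated member. In the HIP it stood at 42.4, 52.4, 47.8, 27.8 and 39.3 CPM in wt mice 1 to 5. In Ts66Yah HIP the lowest value was 40.9, the median 48.6 and the highest 63.6 CPM. The groups overlapped: 2 of 6 Ts66Yah libraries lay above all wt libraries, and wt mouse 4 lay below all others. The fold change of Ts66Yah against wt was 1.20 (95% interval 0.970 to 1.47), a log2 fold change of 0.26 ± 0.14 (SE), and did not pass the test (edgeR, adjusted p = 0.496). In the EC the wt mice 1 to 5 had 108, 110, 81.9, 68.1 and 96.9 CPM. The Ts66Yah EC libraries ranged from 86.8 to 120 CPM with a median of 110. Again the groups overlapped, 3 of 6 Ts66Yah libraries lay above all wt libraries, and wt mouse 4 was the lowest. The fold change was 1.15 (95% interval 0.955 to 1.40), which is 0.21 ± 0.13 on the log2 scale, and did not pass either (edgeR, adjusted p = 0.889).

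In both regions, then, Pcp4 lay between no change and the 1.5-fold of its gene dosage. In the HIP, 109 of 18452 genes tested (0.591%) were called in either direction and in the EC 50 of 17658 (0.283%). Genes of the triplicated segment, from Mir155 to the end of chromosome 16, were called higher in 57.4% of 101 tested genes in the HIP and in 48.4% of 93 in the EC, with median fold changes of 1.501 and 1.49. Pcp4 was not among them, and its log2 fold change was exceeded by 89 of the segment's tested genes in the HIP and by 86 in the EC, while 11 and 6 genes lay below it. Tested against 1.5-fold instead of no change, Pcp4 had an unadjusted p of 0.0354 and an adjusted p of 0.224, adjusted within the segment, in the HIP (edgeR with 1.5-fold as the offset), and 0.0101 and 0.232 in the EC. Departures from 1.5-fold were called for 5.94% of the segment's genes in the HIP and for 1.08% in the EC, and Pcp4 was not one of them. Without wt mouse 4, however, Pcp4 lay closer to no change and the departure was called in both regions, with log2 fold changes of 0.14 (adjusted p = 0.0318) and 0.12 (adjusted p = 0.0304). The call thus turned on 1 wt mouse.

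**Figure D2:**
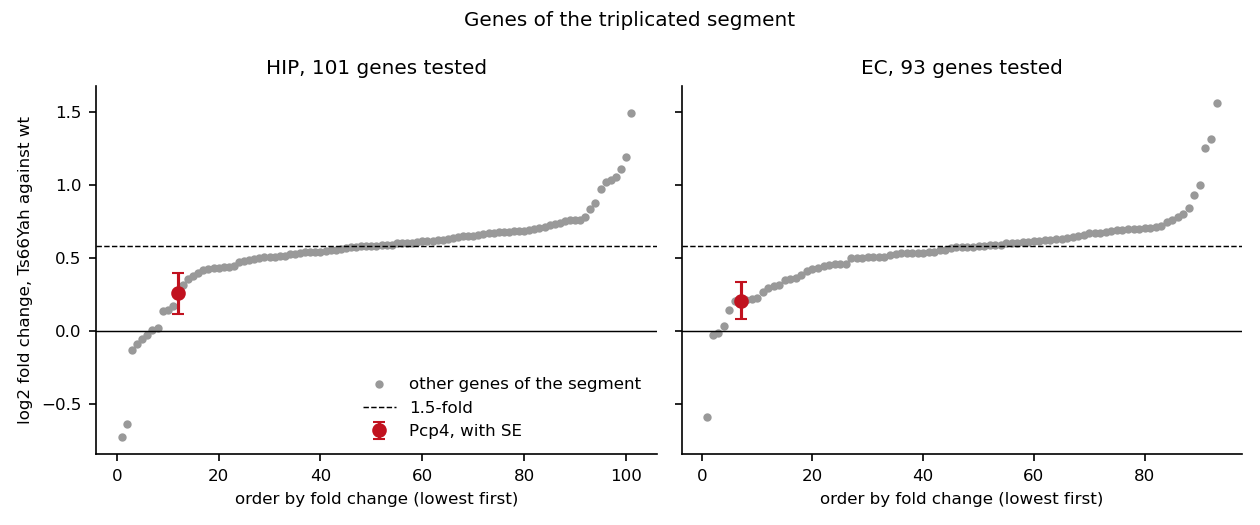
Log2 fold change of Ts66Yah against wt (y axis, edgeR) for each tested gene of the triplicated segment, ordered from lowest to highest (x axis), in HIP (101 genes) and EC (93 genes). Pcp4 (red, with its SE of 0.14 and 0.13) sits near the lower end of both orders, below the dashed line of 1.5-fold.

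The tested protein-coding genes beside Pcp4 on the segment had other values. Dscam, a neuronal cell adhesion gene just distal to it, had log2 fold changes of 0.61 ± 0.05 (SE) in the HIP and 0.71 ± 0.06 in the EC, both called (edgeR, adjusted p = 1.53e-05 and 0.000163). Bace2, which encodes a protease related to the beta-secretase, stood at 0.74 ± 0.22 and 0.69 ± 0.15 and was called in neither region (adjusted p = 0.180 and 0.106). On the proximal side, B3galt5, a galactosyltransferase, stood at 0.57 ± 0.07 in the HIP (adjusted p = 0.000759) and at 0.51 ± 0.13 in the EC (adjusted p = 0.253). The first Igsf5 gene (ENSMUSG00000000159) was tested only in the HIP, at 0.88 ± 0.38 (adjusted p = 0.389). In the EC its place was taken by Sh3bgr, at 0.27 ± 0.29 (adjusted p = 0.975). Only Sh3bgr in the EC, with an SE as large as its value, was near the log2 fold change of Pcp4.

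Since each mouse gave both regions, the spread of Pcp4 between mice could be compared across them. As deviations from the genotype mean on the log2 scale, wt mouse 4 was low in both regions, at -0.56 in the HIP and -0.43 in the EC. Ts66Yah mouse 6 was low in both too, at -0.29 and -0.30, and wt mouse 2 was high in both, at 0.36 and 0.26. Over the 11 mice, Pearson's r was 0.74 (permutation p = 0.0201) and Spearman's rho 0.65 (permutation p = 0.0623). Adjusted over the 8 genes for which this relation was computed, these were 0.119 and 0.249. Without the 2 mice farthest from the median in the HIP, wt mice 2 and 4, r was 0.45, so that the relation rests on those mice. Averaged over both regions per mouse, Pcp4 was 1.19-fold higher in Ts66Yah, with means of 6.19 ± 0.19 against 5.94 ± 0.30 log2 CPM (two-sided exact permutation p = 0.121 against no change and 0.0563 against 1.5-fold, n = 6 and 5). Without wt mouse 4 the fold was 1.09 (exact permutation p = 0.305 and 0.00952). Choroid plexus markers were also lowest in the HIP library of wt mouse 4, at 109 CPM, while its EC library, at 9.62 CPM, was one of several at the low end of the EC range of 9.09 to 41.0 CPM. Striatal markers in the HIP were at 80.4 CPM in wt mouse 4, the lowest wt value, with 79.1 to 116 CPM in the other HIP libraries, and oligodendrocyte markers in its EC library were the lowest of all, at 1256 CPM. Correlations of Pcp4 with the marker sums were taken across the 11 libraries of a region, as log2 deviations from the genotype means. In the HIP, the highest r were 0.75 with the striatal and 0.64 with the choroid plexus sum. The lowest there were -0.59 with the cortical layer 5 and -0.52 with the glutamatergic neuron sum. In the EC, the highest r were 0.58 with the oligodendrocyte and 0.48 with the choroid plexus sum. The lowest there was -0.48 with the thalamus sum, and the striatal sum had 0.20. These values are given as a description, and the part of these markers in the result was not tested.

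**Figure D3:**
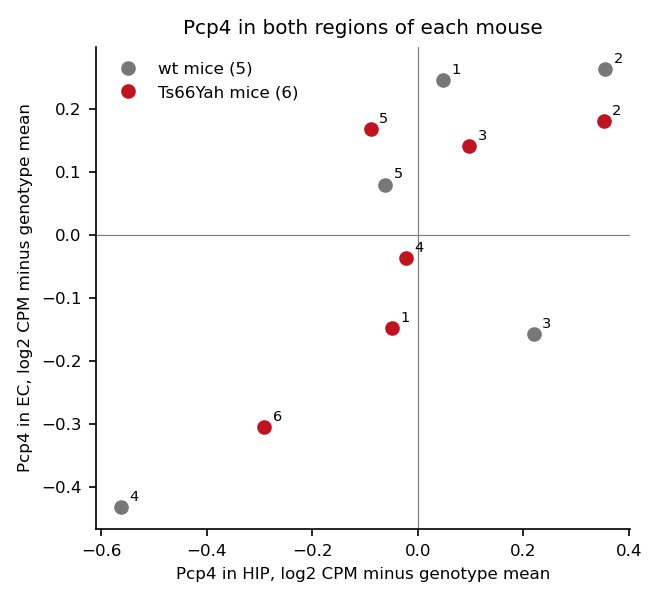
Pcp4 in the HIP (x axis) and the EC (y axis) of each of the 11 mice, as log2 CPM minus the mean of its genotype, with wt mice in grey, Ts66Yah mice in red and the replicate numbers beside the points. Wt mouse 4 lies at the lower left and wt mouse 2 at the upper right.

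The other 7 members, which keep 2 copies, were next compared between genotypes. None was called in the HIP or the EC, so that 0 of 8 members were called in either region, beside the 0.591% and 0.283% of all tested genes given above; 1 member in the HIP and 0 in the EC had an unadjusted p under 0.05 (edgeR), and DESeq2 and limma voom called 0 as well. Of the small IQ proteins, Pcp4l1 ranged from 49.7 to 60.6 CPM in wt HIP and from 42.3 to 61.1 CPM in Ts66Yah HIP. Its fold change was 0.927 (95% interval 0.802 to 1.07) for the HIP and 1.04 (0.932 to 1.17) for the EC. The Ts66Yah HIP libraries were thus spread over a wider range than the wt ones and overlapped with them. Nrgn, the postsynaptic IQ protein, ranged from 599 to 903 CPM in wt HIP and from 554 to 836 CPM in Ts66Yah HIP, with a fold change of 0.890 (0.754 to 1.05). In the EC it varied more than any other member, from 487 to 1126 CPM in wt and from 540 to 1215 CPM in Ts66Yah, and its fold change of 1.02 has an interval of 0.738 to 1.41. Mouse 5 had the highest Nrgn of its genotype in the EC in both genotypes, and changes of Nrgn within those bounds were not detectable at this spread.

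Calm2 and Calm3 differed little between genotypes. Calm2 stood at 1147 ± 71.6 CPM in wt HIP (SD, n = 5) and at 1149 ± 55.9 in Ts66Yah HIP (n = 6), a fold change of 1.002 (0.927 to 1.08). In the EC its fold change was 0.957 (0.869 to 1.05). Calm3 was more spread between mice, at 2069 ± 208 CPM in wt HIP and 1973 ± 138 in Ts66Yah HIP. It had fold changes of 0.953 (0.859 to 1.06) in the HIP and 0.975 (0.868 to 1.09) in the EC. For these genes the 95% intervals leave out a change of 1.5-fold in either region.

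Among the kinases, Camk4 came nearest to a difference. In the HIP it stood at 39.6, 34.1, 31.2, 39.3 and 36.5 CPM in wt mice 1 to 5. In Ts66Yah HIP its lowest value was 36.5, the median 40.9 and the highest 45.0 CPM, so that 3 of 6 libraries lay above all wt libraries. In the EC 4 of 6 Ts66Yah libraries (61.9 to 92.5 CPM, median 78.7) lay above all wt libraries (52.2 to 75.1 CPM). The fold changes were 1.13 (1.01 to 1.27) in the HIP and 1.17 (0.993 to 1.38) in the EC. Neither passed the test, with unadjusted p-values of 0.0337 and 0.0592 and adjusted p-values of 0.368 and 0.818 (edgeR). Camk4 shares 72 of its 3259 exon bases with an antisense gene, which held 59 counts in all libraries, 0.138% as many as Camk4.

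Camk2a, the alpha subunit of CaMKII, had fold changes of 1.04 (0.944 to 1.15) in the HIP and 0.918 (0.838 to 1.005) in the EC, where 4 of 6 Ts66Yah libraries lay below all wt libraries (edgeR, unadjusted p = 0.0617, adjusted p = 0.820). Camk2b, the beta subunit, had fold changes of 0.943 (0.860 to 1.03) and 0.946 (0.876 to 1.02). Whether the genotype difference itself differed between regions was tested as an interaction over all 22 libraries. It called 0 of 19074 genes (0%), with 388 genes at an unadjusted p under 0.05, and DESeq2 also called 0. None of the members was called, and the lowest unadjusted p was that of Camk2a at 0.0504, with a log2 difference of -0.18 (-0.37 to 0.00).

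**Figure D4:**
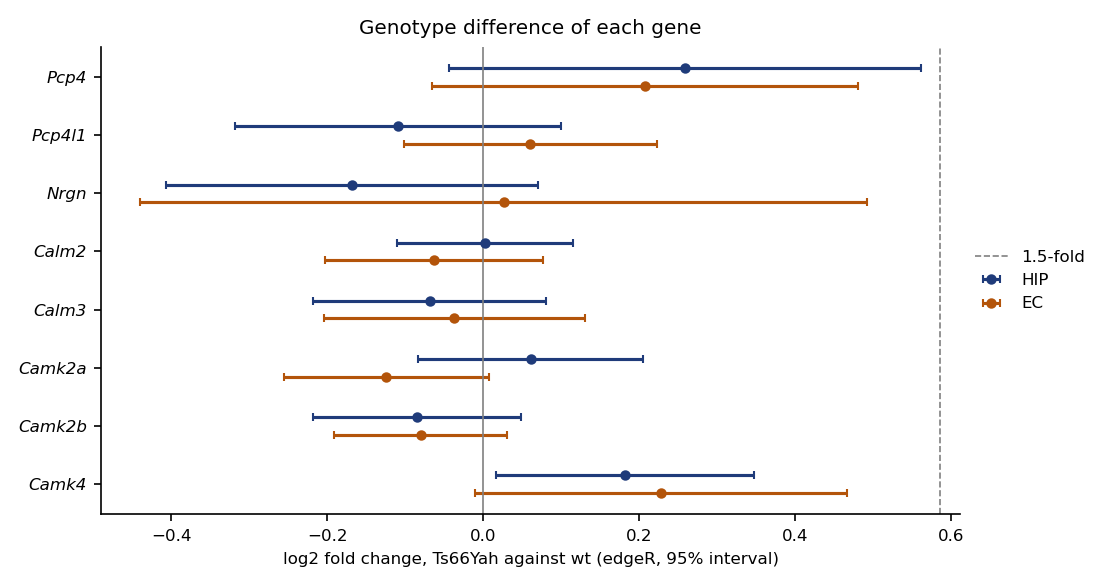
Log2 fold change of Ts66Yah against wt (x axis, edgeR, with 95% intervals) for the 8 genes in HIP (blue) and EC (orange); lines mark no change and 1.5-fold. Both intervals of Pcp4 cover 0 and end just short of 1.5-fold, and of the other genes only Camk4 in the HIP has an unadjusted interval that leaves out 0.

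The wider calmodulin system was described with a list of 69 genes, which holds the members, other calmodulin-like genes, CaMKII subunits and inhibitors, the CaM kinase cascade, calcineurin, calmodulin-regulated enzymes, calcium pumps and scaffolds, with 8 other calcium-binding proteins for comparison. Of the 68 tested genes, 0 were called in the HIP and 0 in the EC (edgeR). An unadjusted p under 0.05 was found for 9 and 5 of them, or 13.2% and 7.35%, close to the 11.9% and 6.25% of all genes tested. The median log2 fold change of the list was -0.00064 for the HIP and -0.013 for the EC, against 1.4e-05 and -0.0045 over all genes tested. In the HIP, DESeq2 called 357 of the 18452 genes that passed the filter, against 109 with edgeR. Its count within the list, 3 of 68 genes, is not read as a trait of the list. These 3 genes were called lower in the Ts66Yah HIP. They were Pvalb, the calcium buffer of fast-spiking interneurons (log2 fold change -0.31, adjusted p = 0.0130), Kcnn1, a calcium-activated potassium channel gated through calmodulin (-0.23, adjusted p = 0.0473), and Camkk1, the kinase upstream of Camk4 (-0.21, adjusted p = 0.0499), named after their values were seen. With edgeR, Pvalb was called without the HIP library of Ts66Yah mouse 2 (-0.37, adjusted p = 0.0110).

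Between the regions of wt mice, 4 of the 8 members differed, 3 higher and 1 lower in the EC. Of all 17935 genes tested, 23.4% were called higher in EC and 24.3% higher in HIP, so that a called region difference is common and the members' share is close to that of all genes. Pcp4 stood at 68.1 to 110 CPM in wt EC, where all 5 libraries lay above all wt HIP libraries (27.8 to 52.4 CPM). It was 2.22-fold higher in the EC (95% interval 1.73 to 2.84; edgeR, adjusted p = 9.22e-05). With each wt mouse left out in turn, its log2 fold change ranged from 1.09 to 1.24, against 1.15 with all mice (edgeR, adjusted p from 2.76e-05 to 0.00119). Camk4 stood at 52.2 to 75.1 CPM in wt EC and at 31.2 to 39.6 CPM in wt HIP, without overlap, and was 1.84-fold higher in the EC (1.59 to 2.14; adjusted p = 1.31e-05). Camk2b moved the other way. It stood at 1669, 1552, 1748, 1739 and 1642 CPM in the HIP of wt mice 1 to 5, and at 881, 900, 930, 869 and 909 CPM in their EC. All EC libraries lay below all HIP libraries, and the EC level was 0.539 of the HIP level (0.498 to 0.583; adjusted p = 4.63e-08).

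Calm2 was the third member called higher in wt EC, by a smaller step. The wt HIP libraries ranged from 1078 to 1255 CPM and the wt EC libraries from 1268 to 1448 CPM, so that the lowest EC library lay just above the highest HIP library. The fold change was 1.17 (1.06 to 1.28; edgeR, adjusted p = 0.00982), and the call was lost without wt mouse 1 (log2 fold change 0.19, adjusted p = 0.0638). With the counts of its pseudogenes added, the ratio of mean CPM between wt EC and wt HIP was 1.16, as it was without them. Calm3 was at 0.958 of its HIP level (0.849 to 1.08; adjusted p = 0.563). Pcp4l1 was at 0.878 of its HIP level (0.785 to 0.983) and missed the threshold (adjusted p = 0.0554). With the mouse as a block it was called lower in the EC (log2 fold change -0.19, adjusted p = 0.0154), as it was with DESeq2 (adjusted p = 0.0486). Nrgn at 0.988 (0.749 to 1.30) and Camk2a at 1.03 (0.940 to 1.13) were not called.

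In Ts66Yah mice the same 4 members were called in the same directions. There 26.4% of 18043 genes tested were called higher in EC and 27.5% higher in HIP. Pcp4 ranged from 86.8 to 120 CPM in Ts66Yah EC and from 40.9 to 63.6 CPM in Ts66Yah HIP, and was 2.13-fold higher in the EC (1.83 to 2.49; edgeR, adjusted p = 6.52e-07). Camk4 was 1.90-fold higher (1.66 to 2.18; adjusted p = 1.01e-06), and Camk2b was at 0.538 of its HIP level (0.493 to 0.588; adjusted p = 1.74e-08). All 6 EC libraries lay on one side of all 6 HIP libraries for these 3 genes. The share of all genes tested whose regions did not overlap is not given here for either genotype. The separation of the libraries is thus a description of these genes and not a trait particular to them. Calm2 was 1.11-fold higher (1.02 to 1.21; adjusted p = 0.0365), with overlapping libraries. This last call was lost without Ts66Yah mouse 1, 3, 5 or 6 (adjusted p from 0.0571 to 0.123). Camk2a was at 0.901 of its HIP level (0.818 to 0.994; adjusted p = 0.0686) and was called without Ts66Yah mouse 4 (log2 fold change -0.18, adjusted p = 0.0242). Calm3, Pcp4l1 and Nrgn had fold changes of 0.976, 0.984 and 1.13 and were not called.

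**Figure D5:**
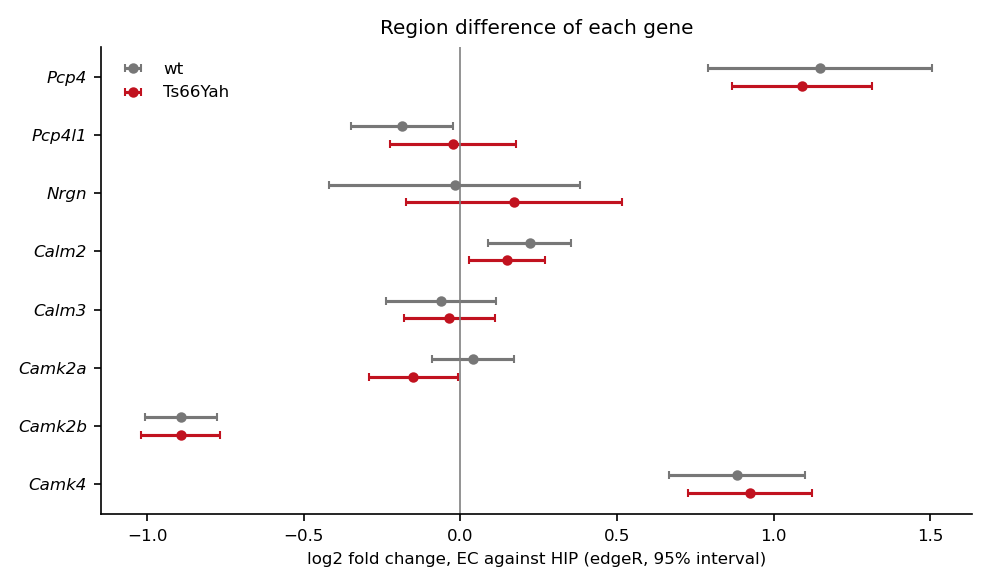
Log2 fold change of EC against HIP (x axis, edgeR, with 95% intervals) for the 8 genes in wt (grey) and Ts66Yah mice (red). Pcp4 (1.15 and 1.09) and Camk4 (0.88 and 0.93) lie to the right and Camk2b (-0.89 in both) to the left of 0, with overlapping intervals of the 2 genotypes for each gene.

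Cell type markers also moved between the regions. All 4 oligodendrocyte markers were called lower in the EC, with sums of 1256 to 3175 CPM in the EC and 6595 to 9617 CPM in the HIP libraries. All 4 markers of dentate granule cells and 3 of 4 CA2 markers were called lower in the EC in both genotypes, the CA2 sum being 186 to 240 CPM in the HIP and 93.5 to 140 CPM in the EC. CA2 neurons are known for high Pcp4. Other lists moved too, in both genotypes. All 3 CA3 markers and 2 of 4 cortical layer 5 markers were called lower in the EC. Of the 4 CA1 markers, 3 were called lower and 1 higher there. All 4 microglia markers were called higher in the EC. Of the 7 striatal markers, 5 were called higher in EC in wt and 4 in Ts66Yah mice. The part of these cell types in the region differences of the members was not tested.

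In the wider list, 48 of 68 tested genes (70.6%) were called between wt regions, 29 higher in EC and 19 higher in HIP, and 49 (72.1%) in Ts66Yah, 29 and 20. Of all genes tested, 47.7% were called in wt and 54.0% in Ts66Yah. Called in both genotypes and in the same direction were 46 genes, 95.8% of those called in wt and 93.9% of those called in Ts66Yah. The same share over all genes tested is not given here, so this agreement is not read as a trait of the list. The largest differences towards the EC were those of Atp2b4, a plasma membrane calcium pump (log2 fold change 2.66 in wt and 2.64 in Ts66Yah), of Camk2d, the delta subunit of CaMKII (2.45 and 2.38), and of Gap43, the presynaptic relative of neurogranin with an IQ motif (1.79 and 1.71). The largest towards the HIP were those of Calml4, a calmodulin-like gene (-3.97 and -3.59), Iqgap2, a scaffold with IQ motifs (-2.51 and -2.71), and Hpca, the neuronal calcium sensor hippocalcin (-1.95 and -2.14). Choroid plexus markers summed to 109 to 3255 CPM in the HIP and to 9.09 to 41.0 CPM in the EC libraries; their part in the difference of Calml4 was not tested. The CaMKII inhibitor genes Camk2n1 and Camk2n2, named after their values were seen, were both called higher in EC in wt, with log2 fold changes of 1.66 and 1.24. Of the 4 CaMKII subunits, Camk2d and Camk2g, the latter also named after its values were seen, were called higher and Camk2b lower in the EC in both genotypes.

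Ratios between members were taken within each library, from CPM per kb, for 4 ratios and 16 tests, of which 3 ratios are given. Their size depends on the exon lengths used. The ratio of Camk2a to Camk2b averaged 3.36 in wt HIP and 6.42 in wt EC on the linear scale, from means of 1.75 ± 0.07 and 2.68 ± 0.05 on the log2 scale, and was higher in the EC of 5 of 5 wt mice. In Ts66Yah it averaged 3.72 (HIP) and 6.23 (EC) and was higher in the EC of 6 of 6 mice. Sign changes over 5 pairs cannot give a two-sided exact p below 0.0625, and over 6 pairs not below 0.03125. Those were the values obtained here in wt and Ts66Yah, and both came to 0.143 after adjustment over the 16 tests. The ratio of Pcp4 to Nrgn was likewise higher in the EC of every mouse, at 0.0767 in the HIP and 0.178 in the EC of wt, and at 0.104 and 0.203 in Ts66Yah, with the same p-values. The ratio of Calm2 to Calm3 went from 0.918 to 1.12 in wt and from 0.963 to 1.095 in Ts66Yah, again in every mouse and with the same p-values. Between genotypes, the lowest p was that of Camk2a to Camk2b in the HIP, at 3.72 in Ts66Yah against 3.36 in wt (exact permutation p = 0.0606, adjusted p = 0.143).

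Finally, the genes most like Pcp4 were listed by Pearson's r of log2 CPM over the 11 libraries of a region, as deviations from the genotype means, which is a description without a test. The genes of a library share its depth and its dissection. Among 9979 genes averaging 10 CPM or more in the HIP, these were Nhlrc1 (r = 0.93), Rhou (0.89), Smndc1 (0.89), Larp1b (0.88) and Denr (0.88). In the EC, among 9733 genes, they were Tmbim1 (0.93), Pygb (0.91), Lbh (0.87), Cdk4 (0.86) and Grwd1 (0.85). No gene was in both lists. In the other region, the HIP genes had r from 0.01 to 0.33 with Pcp4 and the EC genes from -0.15 to 0.56. Among the other members, Pcp4l1 had the highest r with Pcp4 in both regions (0.58 for HIP and 0.50 for EC), and Camk4 the lowest (-0.61 and -0.37). Over all genes ranked, however, Pcp4l1 held only place 532 of 9979 in the HIP and place 616 of 9733 in the EC.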

How the data were processed

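RNA was extracted from the HIP and EC of 5 wt and 6 Ts66Yah mice. Per the study's methods, single-end reads of 50 bases were aligned by Hisat2 to GRCm38 with Ensembl annotation and counted per gene by HTSeq-count. The deposited counts are the authors' raw counts, without normalisation. Versions of Hisat2 and HTSeq-count, the strand setting, the counting mode and the treatment of reads with several matches are not given in the sources used here. The labels name a poly(A) mRNA kit and the methods a ribosomal depletion kit together with polyA RNA. The deposited FCROS and DESeq2 tables hold the authors' own comparisons and their normalised values and were not used. All 22 count columns were mapped to samples by name, and 0 were left over.

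Counts were fitted with edgeR 4.0.16 (quasi-likelihood test, TMM factors, filterByExpr, Benjamini-Hochberg over all genes tested, threshold 0.05) in R 4.3.3, for genotype within each region, for region within each genotype, and for the interaction over all libraries. Against 1.5-fold, the offsets of segment genes were raised by log 1.5 in Ts66Yah libraries, with adjustment over those genes. The SE was the size of the log2 fold change divided by the square root of F, so the 95% intervals are approximate, and intervals are not adjusted for multiple tests. P-values set a difference against the spread between libraries. The main edgeR fits for region and for the interaction treated the HIP and EC libraries of a mouse as independent. The mouse as a block was an alternative to them. The fits were tested on simulated data. Alternatives were DESeq2 1.42.0, limma 3.58.1 with voom, RLE factors, other filters on low counts, all libraries in 1 fit, blocks and leaving out each library or mouse. Permutation tests were written in Python 3.11.15, with SciPy 1.17.1 for ranks and for the adjustment of their p-values. Sequence matches were found with BLAST+ 2.17.0. The correlation tests drew 100000 resamples.

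Gene positions and lengths were taken from GENCODE M21 on GRCm38, to which 55144 of 55385 identifiers matched. HIP and EC libraries of a number and genotype come from the same mouse by their titles, and their deviations from the group means correlated, with r from 0.207 to 0.454. No pair of libraries in a group agreed within sampling noise, the lowest chi-square per gene being 10.5.

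The 8 genes, the lists and the tests were chosen with earlier results of these data known. Named were all 8 genes, list genes called between genotypes, the 3 list genes with the largest region difference in each direction, the 2 tested protein-coding neighbours of Pcp4 on each side and, in each region, the 5 genes with the highest correlation with Pcp4. Other list genes named were chosen after their values were seen, as is said beside them. The average of Pcp4 over both regions and its value without wt mouse 4 were added after the data were seen.

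A gene and a marker that are withheld are not reported here, nor is the ratio that needs that gene.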

Additional observations from a re-analysis of the deposited data

How the results depend on the processing

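Of 1008 recomputed values for 73 results, 989 stayed on their side of the threshold (for a count, within 1.5 times). No called value changed sign, but 29 values that were called neither before nor after lay on the other side of 0, among them Calm2 in the HIP and Nrgn in the EC between genotypes (6 alternatives each). No member was called between genotypes under any alternative run. Leaving out each library in turn moved the log2 fold change of Pcp4 in the fit against 1.5-fold between 0.14 and 0.35 (HIP) and between 0.12 and 0.28 (EC), and the departure from 1.5-fold was called only without wt mouse 4 (0.14, adjusted p = 0.0318, and 0.12, adjusted p = 0.0304). The count of list genes called in the HIP was 3 with DESeq2 and ranged from 0 to 1 when libraries were left out. Genes called over the whole table in the HIP numbered 357 with DESeq2, 61 with the replicate block and 68 with a block by range of animal numbers, against 109, and in the EC 107 with DESeq2 and 79 with all 22 libraries in 1 fit, against 50. The cause of these differences was not tested.

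Wt and Ts66Yah mice of a number share only that number, with correlations of their deviations at -0.007 to 0.058 (HIP) and 0.017 to 0.177 (EC). With the replicate number as a block, Pcp4 had a log2 fold change of 0.34 (HIP, adjusted p = 0.281) and 0.28 (EC, adjusted p = 0.820), and against 1.5-fold its adjusted p was 0.240 and 0.287. The block by range of animal numbers left out wt replicate 1. With the mouse as a replicate block, 5 of 8 members were called between wt regions, Pcp4l1 being added, and 4 in Ts66Yah. Pcp4l1 in wt was also called when at least 1 CPM in 5 libraries was required (adjusted p = 0.0418), as was Camk2a in Ts66Yah (-0.16, adjusted p = 0.0428).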

Other observations

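Camkk1, which encodes a kinase that activates Camk4, was chosen here after its values were seen. Its log2 fold change of Ts66Yah against wt was -0.21 for the HIP, with an adjusted p of 0.163 (edgeR), and -0.29 for the EC, with an adjusted p of 0.282, and neither passed the test. Between regions it was called lower in the EC, by -0.70 in wt (adjusted p = 1.50e-06) and -0.79 in Ts66Yah (adjusted p = 4.86e-07), whereas Camk4 was called higher there in both genotypes. Of the 8 genes of the CaM kinase cascade, 5 were called higher and 3 lower in the EC of wt mice and 4 and 3 in Ts66Yah mice, beside 47.7% and 54.0% of all genes tested that were called in either direction.

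Calm3 had the highest rank correlation between the HIP and the EC of the same mouse among the 8 genes, with deviations of the same sign in 11 of 11 mice. Spearman's rho was 0.79 (permutation p = 0.00687, adjusted p = 0.0550 over 8 relations) and Pearson's r 0.67 (permutation p = 0.0296, adjusted p = 0.119). Neither passed the threshold after adjustment, and r was 0.49 without the 2 mice farthest from the median.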
